A study of Penicillium citrinum with 6 samples.

Results

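The comparison described here sets mycelium of wild-type Penicillium citrinum taken from tobacco leaves against mycelium of the same age from agar plates. It uses 4 of the 6 RNA sequencing libraries of the series, 2 of the group TL2D (leaf, day 2) and 2 of the group CK2D (plate, day 2). The members are all 9385 genes of the deposited tables, of which 8286 passed the filter on low values (1 FPKM or more in any 2 of the 4 libraries) and were tested. CK2D is mycelium grown from conidia for 2 days at 25 °C on Czapek-Dox plates, a defined medium whose carbon source is sucrose and whose nitrogen source is nitrate. TL2D is mycelium harvested after 2 days at 25 °C from tobacco leaves onto which conidia had been placed; the labels call these leaves "flured". The titles do not spell out the group codes, so the codes were read from the sampling days of the growth description, which names 2 leaf time points and a single plate time point. The third group, TL3D (leaf, day 3, 2 libraries), enters no comparison here: its levels are quoted beside single genes and set beside the leaf replicates, and its libraries join 1 alternative fit that shares the estimate of spread. The labels do not say whether replicates 1 and 2 were separate cultures, so any p-value here measures the spread among these libraries, which may be technical.

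Penicillium citrinum is a mould that lives on dead and stored plant material and makes the mycotoxin citrinin. Part of the carbon that a leaf offers such a fungus is in cell wall polymers. Secreted enzymes must cut these outside the cell before the sugars can be taken up. The plate medium offers dissolved sugar, and the soluble sugar of these leaves was not measured here. Spore formation on aerial structures, with the dark pigments of the spore wall, is a separate programme that moulds run once a surface colony is established.

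Levels are FPKM (fragments scaled by gene length and by the fragments of the library), so they can be set side by side between genes. Changes are log2 differences of leaf minus plate on the log2(FPKM + 1) scale with the standard error of the limma fit, and this scale understates the change of genes near 0. Folds are ratios of the group means of FPKM. Rises and falls on leaves are changes whose Benjamini-Hochberg adjusted p in limma was under 0.05. In all, 54.2% of the tested genes passed; 24.8% were higher on leaves and 29.4% lower, and 22.3% passed with a change of at least 2-fold. Each count of a gene group is read against these shares, and no group was tested as a group. Across the tested genes the median log2 change was −0.10. For 82.3% of the tested genes the leaf and plate values did not overlap. A lack of overlap, where given for named genes below, therefore adds little to a call. Because so large a share of the genes passed, a call alone says little about a gene, and the size of its change is given throughout.

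FPKM sums per library lay between 582600 and 607099 in the 4 libraries, and with read numbers unknown no counting error can be given. The plate replicates lay close together, with 110 tested genes at least 2-fold apart, whereas 565 genes were at least 2-fold apart between the leaf replicates. With CK2D replicate 1 or 2 left out, the error rests on the TL2D pair alone, and the number of calls fell from 4493 to 1134 and 1131. Numbers in parentheses after the count of a gene group are that count without CK2D replicate 1 and without CK2D replicate 2. The tables list fungal gene numbers only, so plant RNA in the leaf libraries could not be measured from them and its part in the values was not tested. This holds too for the 5 tested genes whose product names hold a chloroplast or plastid term (1 higher and 4 lower on leaves), which have fungal gene numbers; 0 products carry a photosystem, Rubisco, chlorophyll or light-harvesting name. In a bulk sample, fewer cells of a type and less RNA per cell cannot be told apart.

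Among genes above the median level, the 10 widest fitted rises included 6 enzymes for plant polymers, the L-amino-acid oxidase PCI_8349 and the hydrophobin PCI_9301. The rest were the pair PCI_8332 and PCI_8333, neighbours in gene number. Throughout, neighbouring, adjacent and next to refer to gene numbers, since places on a chromosome were not checked. The O-methyltransferase PCI_8332 had 225 and 235 FPKM in the leaf replicates against 1.07 and 0.807 in the plate replicates (log2 6.90 ± 0.12, adjusted p = 8.38e-05), and the hypothetical protein PCI_8333 had 169 and 145 against 0.122 and 0.472. Of the 10 widest falls, 8 carry gene numbers in the sorbicillinoid or citrinin clusters. Another, the hypothetical protein PCI_8561, had 5.90 and 4.23 FPKM on leaves and 1634 and 1614 on plates (log2 −8.08 ± 0.16, adjusted p = 9.56e-05). In the other, the thaumatin-like protein PCI_9158, the leaf libraries stood at 1.75 and 1.43 FPKM and the plate libraries at 1196 and 1361. Only called genes whose leaf and plate libraries did not overlap were ranked here, so their lack of overlap was set by the choice. From under 0.5 FPKM in both plate libraries, 38 genes reached at least 5 FPKM in both leaf libraries, and 16 genes did the opposite.

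**Figure D1:**
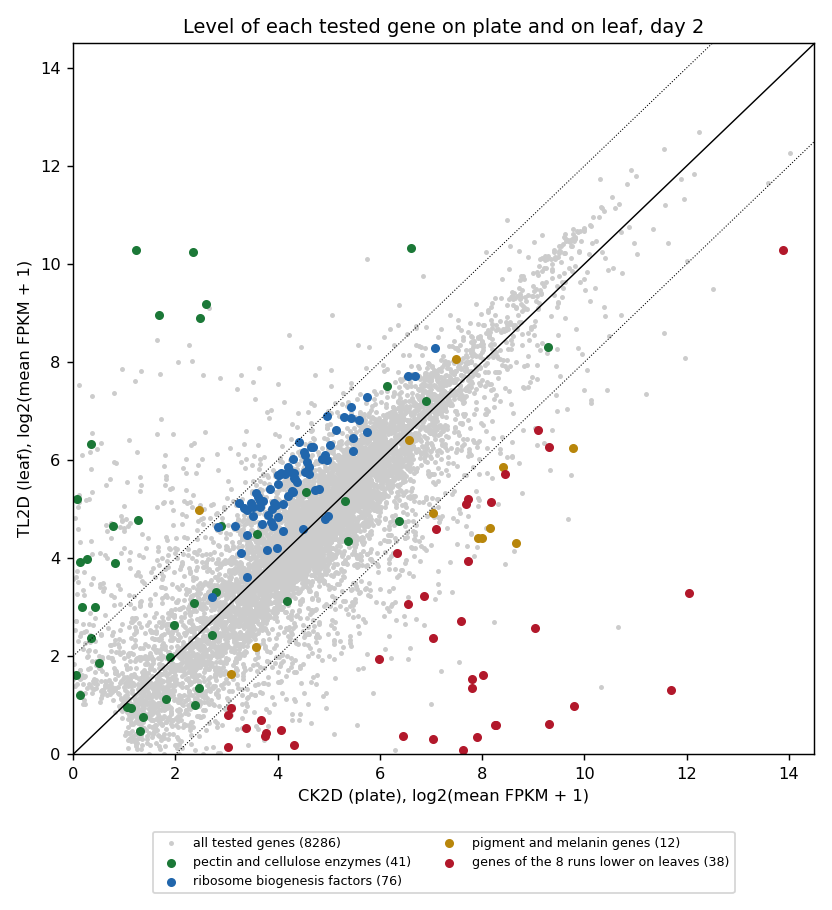
Level of each of the 8286 tested genes on plates (CK2D, horizontal) and on leaves (TL2D, vertical), as log2 of the mean FPKM of 2 libraries plus 1. The solid line marks equal levels and the dotted lines a difference of 2 on the log2 scale; many pectin and cellulose enzymes (green) lie far above the line, ribosome biogenesis factors (blue) mostly just above it, and the genes of 8 runs (red) and most pigment genes (ochre) below it.

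The most abundant transcripts also differed. The share of the FPKM total taken by the top 10 genes was 7.29% and 6.90% in the leaf replicates and 12.6% in each plate replicate, with 4 genes among the 10 in both groups. On plates the hydrophobin PCI_0227 led with 17134 and 16188 FPKM, against 6085 and 3764 on leaves (log2 −1.80 ± 0.28, adjusted p = 0.00825). Hydrophobins are small secreted proteins that make hyphae and spores water-repellent. The hypothetical proteins PCI_8277, PCI_8701, PCI_8702, PCI_2457 and PCI_3401 were also among the 10 on plates. PCI_8277 had 13263 and 16961 FPKM on plates and 1438 and 1058 on leaves, and PCI_2457 had 4249 and 3754 on plates against 367 and 174 on leaves. Both leaf libraries lay below both plate libraries for all 5. On leaves the list was led by elongation factor 1-alpha (PCI_8195), which delivers tRNA to the ribosome, with 6099.8 and 7051 FPKM against 4873 and 4781 on plates, a difference that did not pass (adjusted p = 0.0669). ATP synthase subunit 9 (PCI_2924), the ADP,ATP carrier (PCI_3100) and the ribosomal proteins S27a (PCI_5323) and S23 (PCI_3534) were in the leaf list and not in the plate list, and all 4 rose, from log2 0.79 for PCI_3100 to 1.01 for PCI_5323. The calls of PCI_0227, PCI_8701, PCI_8702, PCI_2924, PCI_3100, PCI_5323 and PCI_3534 did not hold without at least 1 CK2D replicate (adjusted p up to 0.167). The log2 change without TL2D replicate 1 and without replicate 2 was −3.87 and −2.51 for PCI_8702.

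Pectin and pectate lyases, which cut the pectin backbone, rose. Pectin is the galacturonic acid polymer that glues plant cells together. All 5 tested pectin and pectate lyases were higher on leaves, 5 (4 and 5) of 5, with a median log2 change of 3.79. Their summed level was 1491 and 1235 FPKM in the leaf replicates and 1.67 and 2.69 FPKM in the plate replicates. Most of that sum was 1 gene, the pectin lyase PCI_6944, at 1388 and 1123 FPKM on leaves and 0.845 and 1.81 on plates (log2 9.10 ± 0.24, adjusted p = 0.000167). A second pectin lyase, PCI_0131, stood at 76.3 and 82.3 FPKM on leaves against 0.324 and 0.208 on plates (log2 5.99 ± 0.13, adjusted p = 0.000101). The pectate lyase A gene PCI_4885, whose product acts on pectin without methyl groups, had 12.3 and 16.2 FPKM on leaves and was listed at 0 in 1 of the plate libraries (0.202 and 0). Pectate lyase D (PCI_0625) and pectin lyase F (PCI_5120) rose less, by 2.81 and 2.51 on the log2 scale. In each of the 5 genes the lower leaf library lay above the higher plate library. Without at least 1 of the CK2D replicates the call of PCI_5120 was lost (adjusted p up to 0.055).

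Polygalacturonases, which hydrolyse the same backbone, split into 3 (3 and 3) higher and 3 (0 and 1) lower of 7 tested. The 3 that rose are 2 endo-acting enzymes by name and 1 gene named plainly polygalacturonase: PCI_6081 with 594 and 406 FPKM on leaves and 1.88 and 2.50 on plates, PCI_2378 with 601 and 553 against 4.44 and 5.73, and PCI_8848 with 30.1 and 22.9 against 1.52 and 1.30. The 3 that fell did so by far less and include the exo-acting enzymes, which take single units from the chain end. Exopolygalacturonase C (PCI_2491) went from 4.54 and 3.93 FPKM on plates to 1.07 and 0.945 on leaves (log2 −1.38 ± 0.16, adjusted p = 0.00419), and the galacturonidase PCI_7694 from 16.1 and 18.2 to 8.98 and 6.55 (log2 −1.06 ± 0.18, adjusted p = 0.0104). Enzymes for the branched regions and methyl groups of pectin counted 8 (4 and 4) higher and 4 (0 and 1) lower of 16. Rhamnogalacturonase A (PCI_3991) had 28.5 and 19.9 FPKM on leaves and 0.568 and 0.862 on plates (log2 3.86 ± 0.22, adjusted p = 0.00107), and the galactan-cutting enzyme PCI_8180 had 13.7 and 14.3 against 0.751 and 0.789 (log2 3.08 ± 0.13, adjusted p = 0.000504). Of the arabinan-cutting enzymes, PCI_2441 rose from 5.93 and 6.96 to 22.4 and 25.7 FPKM and PCI_7540 fell from 651 and 596 to 401 and 231. Of 13 genes for galacturonate, rhamnose, arabinose and xylose breakdown 4 (0 and 0) rose and 2 (0 and 0) fell, and without TL2D replicate 2 the rises numbered 2. The widest rise in that group was in L-xylulose reductase (PCI_0245), from 32.5 and 32.9 to 54.8 and 66.4 FPKM (log2 0.86 ± 0.12, adjusted p = 0.00704). PCI_2491, PCI_7694, PCI_7540 and PCI_0245 were not called without at least 1 CK2D replicate (adjusted p up to 0.167).

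Of 13 cellulases and related enzymes, 10 (6 and 6) rose and 2 (0 and 1) fell. The cellulose-binding protein PCI_7585 had 1228 and 1197 FPKM on leaves and 3.72 and 4.37 on plates (log2 7.91 ± 0.10, adjusted p = 8.08e-05). The endoglucanase PCI_3154, which cuts inside cellulose chains, had 521 and 429 FPKM on leaves against 4.29 and 4.87 on plates. Oxidative cutting was represented by lytic polysaccharide monooxygenases, copper enzymes that break crystalline cellulose: PCI_3894, named Cel61a, had 1429 and 1147 FPKM on leaves and already 91.8 and 101 on plates (13.4-fold, log2 3.72 ± 0.14, adjusted p = 0.000392). Cellobiose dehydrogenase (PCI_9370), a known electron donor of these monooxygenases, had 13.7 and 15.8 FPKM on leaves and 0.260 and 0.142 on plates (log2 3.71 ± 0.16, adjusted p = 0.000474). A gene named endoglucanase-4, PCI_1520, had 29.5 and 42.4 FPKM on leaves against 0.0567 and 0.0393 on plates, and the expansin-like protein PCI_7821, of a family that loosens cell walls, had 190.0 and 171 against 69.5 and 69.98. No leaf library overlapped a plate library in these genes. Cellobiohydrolase A (PCI_5051), which releases cellobiose from chain ends, rose only from 11.1 and 11.1 to 20.03 and 22.9 FPKM (1.94-fold). Of 11 tested beta-glucosidases, which split the released disaccharides, 3 (1 and 1) rose and 4 (2 and 2) fell, and the falls were wider. Beta-glucosidase L (PCI_0427) went from 93.98 and 90.8 FPKM on plates to 3.29 and 2.39 on leaves (log2 −4.61 ± 0.15, adjusted p = 0.000273) and beta-glucosidase A (PCI_8351) from 140.0 and 125 to 61.1 and 41.5. Calls of PCI_5051 and PCI_8351 were absent without at least 1 CK2D replicate (adjusted p up to 0.0701).

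Hemicellulose enzymes also went both ways, with 8 (5 and 6) higher and 13 (1 and 1) lower of 34 tested and a median log2 change of −0.20. Xylanase A (PCI_7049), which cuts the xylan chain, had 183 and 186 FPKM on leaves and 0.0118 and 0.142 on plates, and the adjacent arabinofuranosidase axhA-1 (PCI_7050), which removes arabinose side groups from it, had 163 and 164 against 0.250 and 1.22. The leaf replicates of both genes lay close together and far above both plate libraries. The xyloglucan-cutting glucanase PCI_0448 had 269 and 245 FPKM on leaves and 3.31 and 2.93 on plates (log2 5.97 ± 0.11, adjusted p = 8.78e-05). 2 esterases that strip acetyl and ferulic acid groups from xylan rose as well: acetylxylan esterase 2 (PCI_4750) had 12.04 and 12.1 FPKM on leaves against 0.182 and 0.144 on plates, and feruloyl esterase A (PCI_7559) had 7.80 and 14.2 FPKM on leaves and was listed at 0 in both plate libraries. Among the genes that fell were the arabinofuranosidase axhA (PCI_8847, 11.4 and 10.02 FPKM on plates and 0.678 and 1.96 on leaves), xylosidase xlnD (PCI_2138, 9.68 and 9.33 on plates against 4.10 and 3.15 on leaves) and beta-mannosidase A (PCI_9001, 5.36 and 6.43 on plates against 2.42 and 1.87 on leaves). These 3 genes were scarce in both groups. The calls that did not survive the loss of at least 1 CK2D replicate were those of PCI_8847, PCI_2138 and PCI_9001 (adjusted p up to 0.077).

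Cutin and lipid enzymes counted 16 (9 and 11) higher and 15 (1 and 1) lower of 54, shares close to those of all tested genes. Cutin is the polyester of the leaf surface, and all 3 genes named cutinase rose: PCI_0177 had 50.6 and 29.4 FPKM on leaves and 0.274 and 0.312 on plates, PCI_2127 had 24.8 and 15.6 against 0.635 and 0.709, and PCI_9224 had 11.4 and 7.89 against 0.317 and 0.558. Replicate 1 was the higher leaf library in each. Secreted lipases PCI_4542 (78.9 and 75.96 against 15.96 and 16.03 FPKM), PCI_1147 (21.7 and 19.02 against 3.27 and 4.05) and PCI_0473 (69.3 and 56.8 against 20.1 and 21.8) rose too, while carboxylesterase 8 (PCI_5046) fell from 35.9 and 36.5 to 4.94 and 9.27. Starch and sucrose enzymes were 4 (1 and 1) higher and 6 (3 and 3) lower of 13. Among the falls were the alpha-glucosidase PCI_8883 (105 and 111 FPKM on plates, 19.7 and 18.96 on leaves) and the glucoamylase PCI_3644 (18.6 and 16.1 on plates against 4.48 and 4.10 on leaves). PCI_5046 had no call without at least 1 CK2D replicate (adjusted p up to 0.0553).

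Secreted and vacuolar peptidases fell more often than they rose, 31 (10 and 8) against 13 (3 and 3) of 74 (median log2 −0.38). The most abundant of them are acid proteases, which digest protein at low pH. Aspergillopepsin-2 (PCI_6085) had 3699.8 and 4507 FPKM in the plate libraries and 1434 and 713 in the leaf libraries (log2 −2.01 ± 0.37, adjusted p = 0.0121), and penicillopepsin-1 (PCI_3611) had 3015 and 3368 on plates against 1633 and 1117 on leaves (log2 −1.24 ± 0.22, adjusted p = 0.0115). A second aspergillopepsin-2 gene, PCI_4066, fell further, from 300.5 and 243 to 22.96 and 23.7 FPKM (log2 −3.48 ± 0.13, adjusted p = 0.000382). The serine protease Pen c gene PCI_5971, of a family known as allergens, went from 1065 and 1599.8 to 566 and 553. Both leaf libraries were below both plate libraries in these 4 genes. Against that direction, the aspartic protease opsB gene PCI_1337 rose from 3.95 and 5.42 to 24.02 and 29.6 FPKM (log2 2.30 ± 0.19, adjusted p = 0.00204) and a dipeptidase (PCI_1286) from 2.65 and 3.06 to 24.3 and 24.7 (log2 2.73 ± 0.13, adjusted p = 0.000598). Among these the calls of PCI_6085, PCI_3611 and PCI_5971 were lost without at least 1 CK2D replicate (adjusted p up to 0.098).

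Of 49 genes with a sugar transporter name, 34 (11 and 11) fell and 4 (1 and 0) rose, with a median log2 change of −0.90. The most abundant on plates, the high-affinity glucose transporter PCI_2887, had 229.9 and 210.1 FPKM there and 18.5 and 24.6 on leaves (log2 −3.31 ± 0.16, adjusted p = 0.000702). Next among those that fell were PCI_1692 (212 and 198 on plates against 28.5 and 20.1 on leaves), PCI_4307 (129 and 166 on plates against 86.1 and 70.04 on leaves) and PCI_4074 (126 and 143 on plates against 15.6 and 42.5 on leaves). An abundant exception, PCI_1027, had 192 and 209.7 FPKM on plates and 204 and 248 on leaves and did not pass (adjusted p = 0.334). 2 maltose-type permeases fell as well: PCI_7161 went from 11.4 and 13.8 to 0.949 and 0.820 FPKM and its like PCI_7994 from 9.23 and 8.41 to 0.542 and 0.812. None of the 34 genes that fell had a leaf library above a plate library. The 34 were picked by their calls, so this adds little, and 82.3% of all tested genes had no overlap. The widest rise among the 4 was in PCI_4488, from 0.329 and 0.873 to 7.35 and 2.60 FPKM, and the next, PCI_4311, went from 3.38 and 4.07 to 19.9 and 11.5. Without at least 1 of the plate libraries the calls of PCI_4307, PCI_4074, PCI_4488 and PCI_4311 were not made (adjusted p up to 0.154). Leaving out TL2D replicates 1 and 2 in turn gave log2 changes of −1.64 and −3.02 for PCI_4074 and 1.19 and 2.40 for PCI_4488.

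Quinate is a cyclic acid that many plants store, and fungi break it down by a set of enzymes whose genes lie side by side. Over all 27 tested genes with quinate or shikimate names, 7 (3 and 3) rose and 8 (2 and 2) fell, shares near those of all tested genes. Such names also lie elsewhere, for example at PCI_1122, PCI_1123, PCI_1124 and PCI_1126. The log2 changes deposited by the authors for these were −0.67, −0.23, −0.70 and −0.61. The stretch described here has gene numbers PCI_3471 to PCI_3478. Quinate dehydrogenase (PCI_3475), the entry enzyme, had 20.1 and 20.4 FPKM on leaves and 3.02 and 3.03 on plates (6.68-fold, log2 2.40 ± 0.12, adjusted p = 0.000706). The 3-dehydroquinase PCI_3473 had 23.99 and 21.5 FPKM on leaves against 3.53 and 5.16 on plates, and the dehydroshikimate dehydratase PCI_3478 had 13.4 and 10.96 against 1.92 and 1.83. The folds of the last 2 were 5.23-fold and 6.50-fold, and leaf and plate values did not overlap in any of the 3. The permease of the same stretch, PCI_3476, rose less, from 2.02 and 2.24 to 3.57 and 3.20 FPKM (adjusted p = 0.0498), and qutG (PCI_3474) had 38.5 and 31.4 on leaves and 25.7 and 26.9 on plates without passing (adjusted p = 0.0613). The 2 regulators at the start of the stretch fell. The quinate repressor PCI_3471 went from 10.1 and 10.4 to 5.19 and 3.94 FPKM and the activator PCI_3472 from 6.09 and 6.76 to 2.76 and 1.62 (log2 −1.24 ± 0.22, adjusted p = 0.0118). PCI_3471, PCI_3476 and PCI_3472 were called with all 4 libraries and not without at least 1 CK2D replicate (adjusted p up to 0.229). PCI_3476 also lost its call without TL2D replicate 1 (adjusted p = 0.0911) and TL2D replicate 2 (adjusted p = 0.0503).

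**Figure D2:**
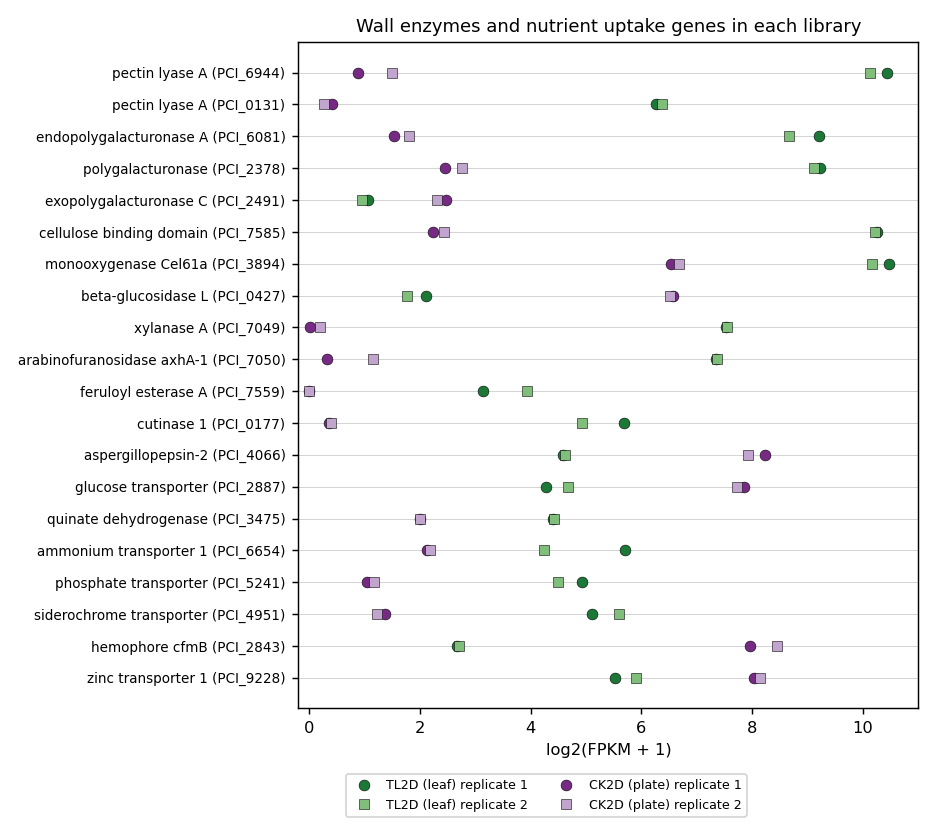
Wall-degrading enzymes and nutrient uptake genes in each of the 4 libraries, as log2(FPKM + 1), with leaf libraries in green and plate libraries in purple, circles for replicate 1 and squares for replicate 2. Green and purple symbols do not overlap in any row; pectin lyase PCI_6944 runs from about 1 on plates to above 10 on leaves, and 6 genes, among them hemophore cfmB (PCI_2843) and the zinc transporter PCI_9228, lie the other way round.

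Nitrogen supply genes rose more often than they fell. Of 43 genes for ammonium, urea, nitrate, amide and purine nitrogen 17 (5 and 7) rose and 7 (2 and 1) fell, and 13 fell when TL2D replicate 1 was left out. Ammonium transporter PCI_1602 had 472 and 258 FPKM on leaves and 137 and 141 on plates, and ammonium transporter PCI_6654 had 51.5 and 17.96 against 3.39 and 3.55. In both, leaf replicate 1 was the highest library. The urea transporter PCI_1860 (133 and 67.5 against 34.3 and 45.9 FPKM), the amidases PCI_6117 (153 and 95.3 against 15.7 and 24.6) and PCI_7985 (29.3 and 28.3 against 3.18 and 3.54), and uricase (PCI_6737, 127 and 108 against 49.8 and 63.2), which opens the purine ring of uric acid, also rose. Glutamine synthetase (PCI_1696), which binds ammonium into glutamine, had 1608 and 1456 FPKM on leaves and 551 and 607 on plates (log2 1.40 ± 0.12, adjusted p = 0.00203). The nitrogen regulator areA (PCI_6302) had 82.1 and 43.8 FPKM in the leaf replicates and 44.7 and 41.9 on plates and did not pass (adjusted p = 0.26). Amino acid permeases counted 15 (6 and 6) higher and 4 (2 and 2) lower of 43, with 11 lower when TL2D replicate 1 was left out. A choline transporter (PCI_7630) showed the widest rise of that group, with 138 and 114 FPKM on leaves and 12.5 and 13.2 on plates (log2 3.19 ± 0.13, adjusted p = 0.000414), and a dicarboxylic amino acid permease (PCI_4612) had 62.3 and 36.6 against 10.6 and 15.7. The loss of at least 1 CK2D replicate ended the calls of PCI_1602, PCI_6654, PCI_1860, PCI_6737 and PCI_4612 (adjusted p up to 0.195). Without TL2D replicates 1 and 2 in turn, the log2 change was 2.09 and 3.55 for PCI_6654.

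Phosphate and sulphur supply showed 18 (6 and 6) rises and 11 (1 and 0) falls among 46 genes. Phytases are secreted enzymes that release phosphate from the plant storage compound phytate. The low-affinity phosphate transporter PCI_5241 had 29.3 and 21.6 FPKM on leaves and 1.07 and 1.26 on plates (log2 3.60 ± 0.19, adjusted p = 0.000899), and the phosphate transporter PCI_6750 had 223 and 266 against 66.7 and 65.1. Phytase B (PCI_4061) had 158 and 97.1 FPKM on leaves and 29.4 and 31.7 on plates, and a second phytase B (PCI_0010) had 4.38 and 3.63 against 0.326 and 0.199. The acid phosphatase PCI_3113 fell from 92.9 and 109.5 to 39.9 and 29.8 FPKM, the alkaline phosphatase PCI_4456 from 80.02 and 79.98 to 46.3 and 41.5 and the histidine acid phosphatase PCI_3326 from 44.8 and 48.2 to 7.56 and 2.76. In sulphate reduction the kinase PCI_3468 (143 and 188 on leaves, 73.9 and 80.01 on plates) and sulfite reductase (PCI_6588, 104 and 118 against 47.5 and 51.99) rose. The 2 abundant methionine-forming enzymes split: methionine synthase PCI_5779 rose from 16.4 and 20.1 to 75.01 and 95.4 FPKM, and the cobalamin-independent enzyme PCI_0542 fell from 1562 and 1840.3 to 785 and 1023. Out of these genes PCI_4061, PCI_3113, PCI_4456, PCI_3326, PCI_3468 and PCI_0542 lost their calls without at least 1 CK2D replicate (adjusted p up to 0.115). The log2 change without TL2D replicate 1 and without replicate 2 was −3.66 and −2.47 for PCI_3326.

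Metal uptake went both ways. Of 52 genes for iron, copper and zinc uptake, 17 (9 and 8) rose and 17 (9 and 9) fell. Fungi take up iron either bound to siderophores, small chelators they secrete, or after reducing it at the cell surface. L-ornithine N5-monooxygenase (PCI_2582), the first enzyme of siderophore synthesis, had 54.1 and 67.9 FPKM on leaves and 8.39 and 8.98 on plates (log2 2.67 ± 0.15, adjusted p = 0.000974). Siderophore transporters with wide rises were PCI_4951 (33.5 and 47.2 against 1.60 and 1.34 FPKM), PCI_0857 (14.7 and 17.2 against 0.206 and 0.364), PCI_1223 (29.3 and 17.4 against 0.925 and 1.07) and PCI_2695 (15.7 and 19.3 against 0.878 and 1.10). The leaf libraries exceeded both plate libraries in each of them. Among the genes that fell were the ferric and cupric reductase PCI_5211, at 67.2 and 64.2 FPKM on plates and 8.89 and 5.98 on leaves, and the hemophore cfmB (PCI_2843), which binds haem, at 249 and 349.5 on plates against 5.40 and 5.51 on leaves (log2 −5.52 ± 0.18, adjusted p = 0.000278). The 5 genes named for zinc transport that were called all fell, where 29.4% of all tested genes fell. Zinc transport genes without a call are not counted here. The 5 were led by PCI_9228 (261 and 281 FPKM on plates, 45.2 and 59.1 on leaves) and PCI_5441 (151 and 159 on plates against 58.6 and 50.4 on leaves). The zinc-responsive regulator PCI_4903 fell with them, from 65.4 and 61.1 to 10.3 and 8.37 FPKM (log2 −2.64 ± 0.13, adjusted p = 0.00081), as did the COBW domain protein PCI_2196, of a family that handles metal ions, from 149 and 224 to 2.82 and 2.54. A copper transporter (PCI_7211) went from 21.1 and 17.2 to 1.000 and 1.25.

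The protein synthesis machinery rose as a block, by modest amounts. Of 77 cytosolic ribosomal protein genes, 74 (2 and 0) rose and 1 (1 and 0) fell, with a median log2 change of 0.75. The exception was a gene named L30 (PCI_4575), which fell from 139 and 151 to 75.7 and 64.9 FPKM, while S20 (PCI_2433), for example, had 1571 and 1779 on leaves and 862 and 902 on plates (1.90-fold), with no overlap. Ribosome biogenesis factors, which process rRNA and assemble the subunits, rose more widely, 70 (54 and 57) of 76 with a median of 1.25, and none fell. Nucleolar protein 16 (PCI_5227) had 76.8 and 87.00 FPKM on leaves and 18.7 and 22.1 on plates (log2 1.96 ± 0.13, adjusted p = 0.00132), and the nucleolar GTP-binding protein 2 (PCI_1312) had 114 and 122 against 30.6 and 30.3. Mitochondrial ribosomal proteins counted 43 (6 and 1) higher of 45 (median 0.67), RNA polymerase I and III subunits 17 (2 and 4) of 21 and translation factors 35 (5 and 4) of 45. Aminoacyl-tRNA synthetases rose in 26 (1 and 2) of 39. Elongation factor 3 (PCI_7163), an ATPase specific to fungal translation, had 109 and 120.1 FPKM on leaves and 44.3 and 50.1 on plates (log2 1.27 ± 0.11, adjusted p = 0.00215). The ribosome-associated Hsp70 PCI_6331 had 799 and 928 FPKM on leaves against 448 and 443 on plates. For the modest changes of the ribosomal protein genes few calls stood without a plate replicate, as the counts in parentheses give. The single genes named above that lost their calls in the same way were PCI_4575, PCI_2433 and PCI_6331 (adjusted p up to 0.0773).

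**Figure D3:**
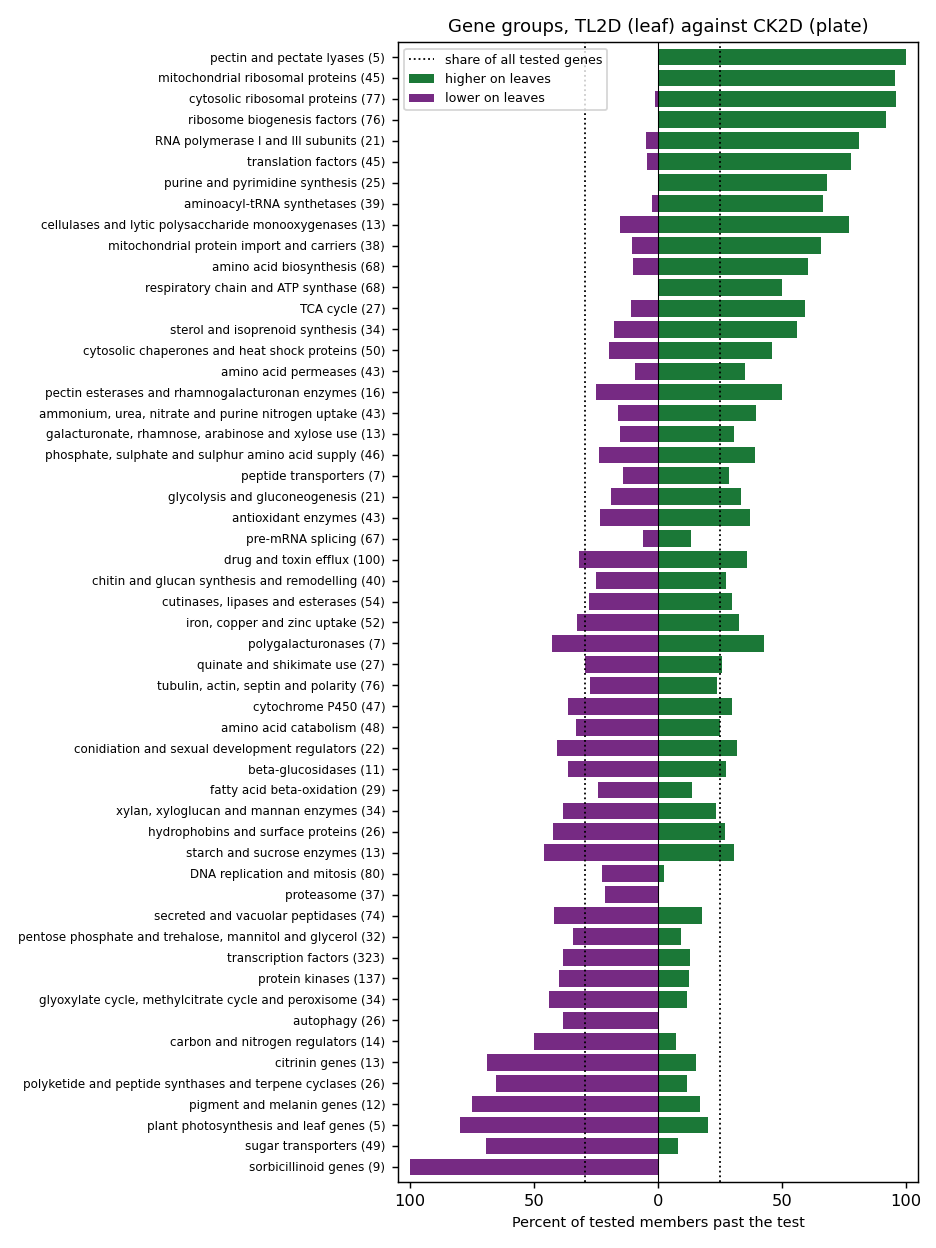
Percent of the tested members of each gene group that were higher (green, right) or lower (purple, left) on leaves, with the number of tested members in parentheses. Dotted lines mark the shares over all tested genes, 24.8% higher and 29.4% lower; protein synthesis groups fill the right side at the top, and sugar transporters, pigment genes and toxin genes the left side at the bottom.

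Genes for nucleotide and amino acid synthesis and for the TCA cycle were more often higher than lower on leaves. Purine and pyrimidine synthesis had 17 (5 and 5) higher and 0 lower of 25 (2 lower without TL2D replicate 1), with orotidine phosphate decarboxylase (PCI_0109), the last step to UMP, at 31.3 and 29.9 FPKM on leaves and 10.4 and 9.80 on plates. Amino acid biosynthesis had 41 (10 and 7) higher and 7 (0 and 0) lower of 68. In the TCA cycle 16 (4 and 3) of 27 rose and 3 (0 and 0) fell. The citrate synthase-like protein PCI_9437 had 454 and 391 FPKM on leaves and 118 and 119 on plates (log2 1.82 ± 0.11, adjusted p = 0.00109) and the isocitrate dehydrogenase PCI_8091 had 523 and 540.1 against 283 and 273. Respiratory chain and ATP synthase genes rose in 34 (3 and 4) of 68 and fell in none (2 without TL2D replicate 1), with a median of 0.32. The widest rise there was in the alternative oxidase PCI_9062, which passes electrons to oxygen outside the proton-pumping chain, at 25.3 and 38.8 FPKM against 5.79 and 7.61 (log2 2.08 ± 0.25, adjusted p = 0.00475). Mitochondrial import and carrier genes were 25 (8 and 4) higher and 4 (1 and 1) lower of 38. Glycolysis and gluconeogenesis counted 7 (0 and 2) higher and 4 (1 and 1) lower of 21. Of the kinases for its first step, the hexokinase PCI_6407 fell from 141 and 123 to 31.2 and 23.7 FPKM (log2 −2.23 ± 0.16, adjusted p = 0.00155) and the glucokinase PCI_7258 from 130.4 and 138 to 78.4 and 92.4. The hexokinase PCI_3076 rose slightly, to 50.8 and 54.7 on leaves (1.31-fold, log2 0.39 ± 0.09, adjusted p = 0.0247), and the most abundant of them on leaves, PCI_8501, stood at 178 and 173 on plates against 183 and 203 on leaves without a call (adjusted p = 0.285). Pyruvate decarboxylase (PCI_7442), the entry to ethanol formation, had 32.1 and 34.6 FPKM on plates and 0.321 and 0.348 on leaves (log2 −4.68 ± 0.13, adjusted p = 0.000176). Lost without at least 1 CK2D replicate were the calls of PCI_9062, PCI_7258 and PCI_3076 (adjusted p up to 0.153).

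The group of the pentose phosphate pathway, trehalose, mannitol and glycerol had 11 (4 and 3) falls and 3 (2 and 1) rises among 32, a share of falls near the 29.4% over all tested genes and a smaller share of rises than the 24.8%. Mannitol is the sugar alcohol that moulds store and pack into spores. Mannitol-1-phosphate dehydrogenase (PCI_6748), which leads to mannitol from fructose phosphate, had 517 and 553 FPKM on plates and 73.4 and 83.5 on leaves (log2 −2.76 ± 0.11, adjusted p = 0.000392). Mannitol 2-dehydrogenase, which interconverts mannitol and fructose, rose in both of its genes, PCI_8523 from 149 and 144 to 465 and 353 and PCI_6177 from 131 and 113 to 226 and 275. The most abundant gene of the group, the NADP-dependent mannitol dehydrogenase PCI_9426, fell from 2556 and 2645 to 1672 and 1677 (log2 −0.64 ± 0.11, adjusted p = 0.0114). Trehalose genes that fell include the synthase PCI_1838, from 81.1 and 80.8 to 50.4 and 54.2, the phosphatase PCI_2549 from 64.7 and 59.6 to 39.1 and 39.6 and the acid trehalase PCI_7391 from 12.7 and 12.8 to 5.66 and 6.32. Leaf and plate values did not overlap in any of these mannitol and trehalose genes. Of 34 genes of the glyoxylate and methylcitrate cycles and the peroxisome, 15 (3 and 2) fell and 4 (2 and 2) rose. The methylcitrate synthase PCI_7162, of the pathway that burns propionate, went from 199 and 190.1 to 70.8 and 83.4 FPKM, and malate synthase (PCI_7166), of the glyoxylate cycle, from 74.7 and 85.05 to 42.7 and 36.9. A pair of peroxisomal thiolases of fatty acid oxidation went the other way, PCI_1000 from 8.72 and 9.43 to 76.4 and 82.8 (log2 3.000 ± 0.10, adjusted p = 0.00032) and PCI_6401 from 9.58 and 8.94 to 51.7 and 60.4. No call remained without at least 1 CK2D replicate for PCI_6177, PCI_9426, PCI_1838, PCI_2549, PCI_7391 and PCI_7166 (adjusted p up to 0.137).

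Amino acid breakdown had 12 (5 and 5) genes higher and 16 (4 and 4) lower of 48, shares close to those of all tested genes. Of the leucine pathway, 3 genes at nearby numbers fell: isovaleryl-CoA dehydrogenase (PCI_7723) had 109 and 98.98 FPKM on plates and 25.2 and 23.8 on leaves, and of the methylcrotonoyl-CoA carboxylase subunits PCI_7722 had 102 and 96.2 on plates against 23.9 and 21.00 on leaves and PCI_7727 75.4 and 70.8 on plates against 23.6 and 18.6 on leaves. Of the tyrosine pathway, 4-hydroxyphenylpyruvate dioxygenase (PCI_9115) fell from 137 and 116 to 66.3 and 36.6 FPKM and the fumarylacetoacetase PCI_0270 from 47.6 and 46.1 to 15.5 and 11.1. The L-amino-acid oxidase PCI_8349, which releases ammonia from amino acids, stood at 651 and 444 FPKM on leaves and 3.37 and 7.16 on plates (log2 6.50 ± 0.36, adjusted p = 0.001). The peroxisomal sarcosine oxidase PCI_8816 had 111 and 45.1 FPKM on leaves against 3.94 and 3.95 on plates (log2 3.86 ± 0.44, adjusted p = 0.0041). In this set PCI_9115 lost the call without at least 1 CK2D replicate (adjusted p up to 0.125). Leaving out TL2D replicates 1 and 2 in turn gave log2 changes of 3.22 and 4.50 for PCI_8816.

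Sterol and isoprenoid synthesis, which makes the membrane sterol ergosterol, had 19 (7 and 7) rises and 6 (1 and 1) falls among 34 genes. Several steps are present as more than 1 gene. Eburicol 14-alpha-demethylase PCI_1876, of the enzyme type that azole fungicides hit, had 229.7 and 199 FPKM on leaves and 2.11 and 2.35 on plates (log2 6.06 ± 0.12, adjusted p = 9.78e-05), while sterol 14-alpha demethylase PCI_6001 had 120.2 and 119 against 73.3 and 66.6 (log2 0.77 ± 0.09, adjusted p = 0.00468). Methylsterol monooxygenase PCI_6659 had 88.9 and 73.2 FPKM on leaves against 3.77 and 4.54 on plates and its counterpart PCI_6107 355 and 298 against 102 and 104. Likewise the sterol reductase PCI_6396 had 56.6 and 52.8 against 6.29 and 5.98, and PCI_8339 96.5 and 76.2 against 54.6 and 56.4. Within each of these 3 pairs the gene with the lower plate level had the wider rise. The upstream enzyme hydroxymethylglutaryl-CoA synthase (PCI_5606) rose from 42.5 and 41.8 to 192 and 189 (log2 2.15 ± 0.08, adjusted p = 0.000382). A pair of squalene synthase genes did not follow the pattern of those 3 pairs. PCI_9347, with the lower plate level, fell from 21.4 and 27.99 to 4.37 and 5.07 FPKM. The more abundant PCI_4064 rose from 124 and 126 to 165 and 179 FPKM. Here the calls of PCI_6001, PCI_8339 and PCI_4064 depended on both CK2D replicates being present (adjusted p up to 0.128).

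Some genes changed in stretches of consecutive gene numbers. In 9 runs, at least 4 consecutive gene numbers all changed at least 4-fold the same way, and 8 of them, with 38 genes, were lower on leaves. Gene numbers are those of the deposited tables, and whether consecutive numbers are neighbours on a chromosome was not checked, since no genome was used here. The longest runs have 6 genes. The first, PCI_3051 to PCI_3056, carries the names of the sorbicillinoid cluster, which makes yellow pigments, and the highest of its members on leaves was the cluster regulator PCI_3052 at 4.35 and 4.02 FPKM against 128 and 135 on plates. The adjacent second regulator PCI_3057 fell less, from 51.8 and 60.2 to 20.2 and 14.1. Of 13 tested genes in the citrinin group, 9 fell and 2 rose, with the wider rise in PCI_4327. The citrinin stretch forms runs PCI_3398 to PCI_3402 and PCI_3404 to PCI_3407, broken only by the cluster activator PCI_3403, which fell from 52.9 and 56.99 to 16.9 and 12.7 FPKM (log2 −1.84 ± 0.16, adjusted p = 0.00229) and so by less than 4-fold. Inside it, the hypothetical protein PCI_3401 was the most abundant gene, with 4695 and 3737 FPKM on plates and 10.5 and 6.90 on leaves. While these regulators were still measured at several FPKM on leaves, the citrinin polyketide synthase PCI_3406, which builds the carbon skeleton, was at 0.0400 and 0.0934 there against 197 and 198 on plates. PCI_3057 lost the call without at least 1 plate replicate (adjusted p up to 0.0531).

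The other falling runs have less familiar names. PCI_8004 to PCI_8009 begins with a cyclopiazonic acid synthetase and a nonribosomal peptide synthetase named anaPS. PCI_8005 (anaPS) had 112 and 118 FPKM on plates and 13.5 and 3.30 in leaf replicates 1 and 2, and the lactate 2-monooxygenase PCI_8008 had 659 and 609 on plates against 109 and 41.96 on leaves. Leaf replicate 1 lay above replicate 2 in both, and the day 3 leaf libraries stood at 73.98 and 73.5 FPKM for PCI_8005 and at 331 and 307 for PCI_8008. PCI_6267 to PCI_6270 carries agnestin-type names, of a fungal polyketide family, and its short-chain dehydrogenase PCI_6268 went from 18.5 and 19.3 to 0.151 and 0.138 FPKM (log2 −4.12 ± 0.13, adjusted p = 0.000271). The agnestin-type regulator PCI_6255 fell from 66.7 and 88.3 to 8.57 and 6.67 FPKM. In PCI_7325 to PCI_7329 the plate libraries lay apart: the Diels-Alderase mycB (PCI_7326) had 7.80 and 23.6 FPKM in plate replicates 1 and 2 and 0.487 and 0.317 on leaves, and the transporter PCI_7328 had 4.30 and 20.8 on plates against 0.269 and 0.333 on leaves. PCI_6126 to PCI_6129 holds a phosphoglycolate phosphatase (PCI_6126, 542 and 547 FPKM on plates, 99.5 and 94.99 on leaves) and the transporter PCI_6128 (142 and 132 on plates against 25.6 and 20.7 on leaves). PCI_8274 to PCI_8277 ends in the abundant hypothetical protein PCI_8277 and starts with a serine carboxypeptidase, PCI_8274, which went from 173 and 235 to 40.7 and 26.03. Of these named genes PCI_8004, PCI_8005 and PCI_8008 were not called without at least 1 CK2D replicate (adjusted p up to 0.0747). Without TL2D replicates 1 and 2 in turn, the log2 change was −4.69 and −2.84 for PCI_8004, −4.75 and −2.997 for PCI_8005 and −3.88 and −2.53 for PCI_8008. The log2 change without CK2D replicate 1 and without replicate 2 was −3.47 and −1.85 for PCI_7325, −3.43 and −1.86 for PCI_7329, −4.14 and −2.65 for PCI_7326 and −4.07 and −2.03 for PCI_7328.

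Only 1 run was higher on leaves, PCI_5644 to PCI_5647, with 4 genes and a median log2 change of 5.03. Its products are named after a PR-toxin cluster of another Penicillium species, 2 short-chain dehydrogenases and a transporter beside a hypothetical protein. The dehydrogenase PCI_5646 had 67.6 and 79.2 FPKM on leaves and 0.262 and 0.499 on plates, and the transporter PCI_5647 had 57.3 and 62.99 against 0.734 and 0.818 (log2 5.10 ± 0.12, adjusted p = 0.00014). The gene on either side changed less. PCI_5643 was also higher on leaves, at 7.16 and 5.64 against 2.82 and 2.44 on plates. PCI_5648 stood at 17.1 and 17.6 on leaves against 16.4 and 14.02 on plates. Shorter stretches rose as well. The dye-decolorizing peroxidase PCI_6350 had 57.03 and 65.98 FPKM on leaves against 0.471 and 1.01 on plates, beside the galactose oxidase PCI_6351 with 67.8 and 74.3 against 0.254 and 0.251. The ABC multidrug transporter PCI_2853 had 72.00 and 114 FPKM on leaves and 0.233 and 0.332 on plates (log2 6.16 ± 0.25, adjusted p = 0.00042), and the gene next to it, a regulator of ABC transporters by name (PCI_2854), had 31.7 and 35.5 against 4.46 and 6.93. Leaf and plate libraries did not overlap in any of the genes of these stretches that were called. Without at least 1 CK2D replicate no call was made for PCI_5643 (adjusted p up to 0.0872).

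Among all 26 tested polyketide synthases, peptide synthetases and terpene cyclases, 17 (8 and 7) fell and 3 (2 and 1) rose, with 5 higher when TL2D replicate 2 was left out. Outside the runs the peptide synthetase atnA (PCI_1663) fell from 21.1 and 20.4 to 3.01 and 1.99 FPKM and the polyketide synthase PCI_6521 from 48.5 and 45.1 to 14.4 and 12.9. Cytochrome P450 genes, which often decorate such products or detoxify plant compounds, were 14 (7 and 10) higher and 17 (5 and 4) lower of 47. The P450 lcsI (PCI_0885) had 189 and 278 FPKM on leaves and 6.93 and 15.9 on plates, and gsfF (PCI_8438) had 41.1 and 55.03 against 0.667 and 0.651 (log2 4.87 ± 0.18, adjusted p = 0.000372). In the other direction yanH (PCI_1024) and its neighbour PCI_1025 fell, PCI_1024 from 88.9 and 119 to 5.70 and 5.82 and PCI_1025 from 49.1 and 61.2 to 7.78 and 9.07. Efflux pumps, which export drugs and toxins, were 36 (17 and 19) higher and 32 (8 and 8) lower of 100, near the shares of all tested genes in the lower direction and above them in the higher one. Beside PCI_2853, wide rises were in the pumps PCI_8560 (50.8 and 84.3 against 2.44 and 2.46 FPKM), kojT (PCI_2511, 223 and 124 against 7.89 and 8.65) and atrB (PCI_4954, 24.2 and 26.1 against 0.662 and 0.684). The sulfite pump SSU1 (PCI_0658) fell from 9.16 and 12.6 to 0.379 and 0.602.

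Spore pigment genes were lower on leaves, 9 (5 and 5) of 12, with 2 (1 and 1) higher and a median log2 change of −2.40. The dark pigment of mould spores is melanin made from a polyketide. The polyketide synthase albA (PCI_7912), its first enzyme, had 411 and 395 FPKM on plates and 31.3 and 6.22 in leaf replicates 1 and 2 (log2 −4.72 ± 0.72, adjusted p = 0.00812), and the adjacent laccase abr2 (PCI_7911) had 249 and 231 on plates against 28.1 and 12.6 on leaves. Both leaf libraries were far below the plates, with replicate 2 the lower. The leaf replicates lay close together in 3 other pigment genes: ayg1 (PCI_7947) had 23.2 and 23.7 FPKM on leaves against 302 and 268, scytalone dehydratase arp1 (PCI_5104) 18.7 and 22.03 against 252 and 257 and the reductase arp2 (PCI_5105) 74.3 and 76.5 against 884 and 861 (log2 −3.52 ± 0.08, adjusted p = 0.000137). At day 3 on leaves these 5 genes stood between the day 2 leaf and the plate levels, for instance 130.2 and 133 FPKM for albA and 284 and 313 for arp2. The scytalone dehydratase-like gene PCI_1167 rose instead, from 4.14 and 4.94 to 35.8 and 25.2 FPKM (log2 2.49 ± 0.21, adjusted p = 0.00203). PCI_7912 was called in the full comparison but not without at least 1 CK2D replicate (adjusted p up to 0.0682). Leaving out TL2D replicates 1 and 2 in turn gave log2 changes of −5.81 and −3.64 for PCI_7912.

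Regulators of conidiation and sexual development went both ways: of 22 tested, 7 (2 and 2) rose and 9 (2 and 3) fell. In Aspergillus, brlA, abaA and wetA act in sequence to build the spore-bearing structure and mature the spores. The gene named conidiophore master regulator (PCI_2178, the brlA type) had 489.9 and 412 FPKM on plates and 212 and 139 on leaves (log2 −1.38 ± 0.23, adjusted p = 0.0102). Next in order, abaA (PCI_1856) had 88.1 and 76.04 FPKM on plates against 22.2 and 10.7 on leaves (log2 −2.33 ± 0.35, adjusted p = 0.00762), and wetA (PCI_1706) had 185 and 175 on plates against 34.4 and 18.1 on leaves (log2 −2.80 ± 0.31, adjusted p = 0.00387). The spore regulator vosA (PCI_8689) fell from 58.1 and 55.1 to 17.5 and 11.2. All leaf values of the 4 lay below all plate values, and leaf replicate 2 was the lower in each. Among those that rose were the developmental regulator flbA (PCI_0977) from 19.04 and 21.03 to 28.1 and 29.6 FPKM, fluG (PCI_0893) from 24.1 and 25.4 to 37.8 and 36.9, and the sexual development regulator velC (PCI_1944) from 25.4 and 24.3 to 83.2 and 88.9 (log2 1.75 ± 0.09, adjusted p = 0.000899). The secondary metabolism regulator laeA is named for PCI_0056, with 41.8 and 33.9 on leaves and 41.1 and 40.6 on plates and no call (adjusted p = 0.494), and for PCI_6080, which rose from 3.10 and 5.14 to 16.8 and 16.1. Each library pools the structures of a colony, so mycelium and spore-bearing parts cannot be told apart. The calls of PCI_2178, PCI_1856, PCI_8689, PCI_0977 and PCI_0893 did not stand without at least 1 of the plate replicates (adjusted p up to 0.14).

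Surface proteins went both ways. Of 26 hydrophobins and surface proteins 7 (4 and 5) rose and 11 (6 and 5) fell. Of the 5 hydrophobins tested, PCI_0227 fell as given above, PCI_2115 rose from 404 and 314 to 1702 and 2137 FPKM (log2 2.42 ± 0.19, adjusted p = 0.00175), and PCI_9301 rose from 2.26 and 1.98 to 395 and 298 (log2 6.79 ± 0.17, adjusted p = 0.000143). The other two, PCI_2310 (2146 and 2034 FPKM on plates, 1555 and 797 on leaves) and PCI_8314 (164 and 156 on plates against 94.9 and 36.00 on leaves), did not pass (adjusted p = 0.0784 and 0.0553). PCI_0227 was the most abundant of the 5 in all 4 libraries. The thaumatin-like protein PCI_9158 fell as given above and a second such gene, cetA (PCI_5535), had 573 and 576 FPKM on plates and 350.4 and 313 on leaves. A CFEM domain protein (PCI_4577), of a fungal surface family, went from 1031 and 1005 to 215 and 127. Among wall polymer genes (11 (3 and 3) higher, 10 (4 and 4) lower of 40), glucan 1,3-beta-glucosidase A (PCI_0537) fell from 674 and 604 to 61.9 and 47.2 FPKM and chitinase A1 (PCI_0890) from 521 and 521 to 122 and 77.04, while the chitin-binding protein PCI_1641 rose from 105 and 124 to 921 and 807 (log2 2.91 ± 0.13, adjusted p = 0.000574). Only with both CK2D replicates were the calls of PCI_0227 and PCI_5535 made (adjusted p up to 0.0872).

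**Figure D4:**
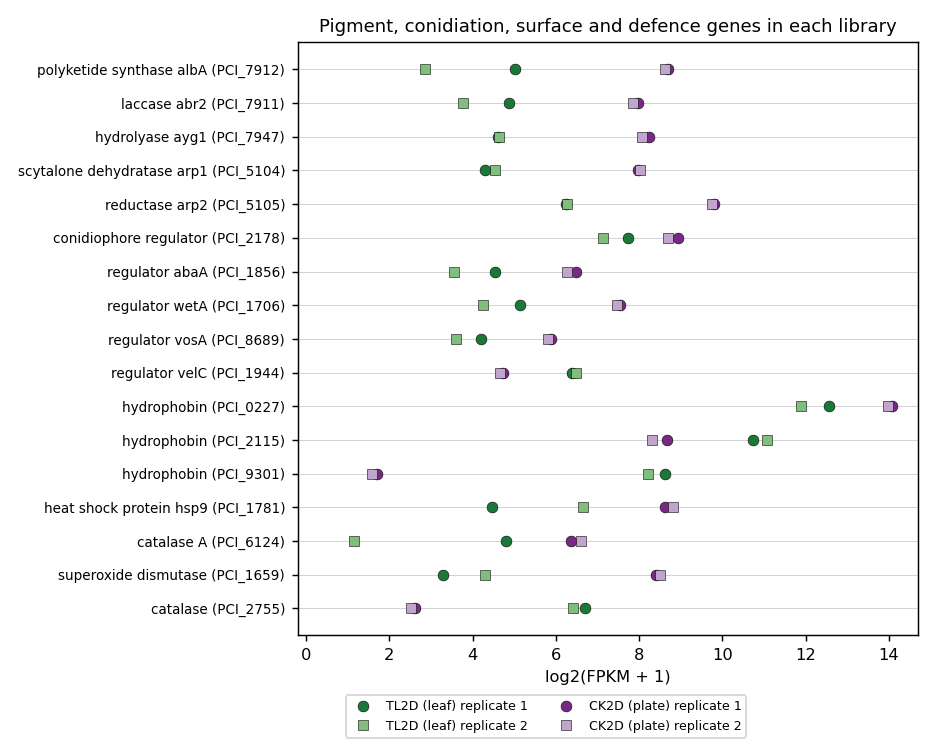
Pigment, conidiation, surface and defence genes in each of the 4 libraries, as log2(FPKM + 1), with leaf libraries in green, plate libraries in purple, circles for replicate 1 and squares for replicate 2. Pigment genes and the regulators brlA type, abaA, wetA and vosA lie lower on leaves, hydrophobins PCI_2115 and PCI_9301 and the regulator velC lie higher, and the leaf symbols are widely apart for albA, hsp9 and catalase A.

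Regulatory genes were more often lower than higher on leaves, although mostly by small amounts. Of 323 transcription factors 124 (17 and 15) fell and 42 (5 and 8) rose (median log2 −0.37), and of 137 protein kinases 55 (7 and 6) fell and 17 (3 and 3) rose. The neighbouring genes PCI_1410, a bZIP factor named atf21, and PCI_1411, a kinase named HOG1 after the osmotic stress kinase of yeast, fell together, from 116 and 137 to 19.7 and 16.6 and from 27.7 and 25.6 to 3.04 and 3.002 FPKM. The histidine kinase NIK1 gene PCI_4595, of a family that senses osmotic stress, went from 72.9 and 78.4 to 10.7 and 8.32 (log2 −2.87 ± 0.15, adjusted p = 0.00081). The C2H2 factor PCI_9458 rose from 1.41 and 2.11 to 21.6 and 19.1 FPKM (log2 2.96 ± 0.18, adjusted p = 0.00116). Carbon catabolite repression, by which glucose shuts off genes for other carbon sources, has creA as its repressor: PCI_1056 had 127 and 138 FPKM on leaves and 152 and 143 on plates and no call (adjusted p = 0.209). The xylanolytic activator gene PCI_6584 fell from 5.40 and 5.94 to 3.42 and 2.72. Of 37 proteasome genes 8 (0 and 0) fell, a smaller share than the 29.4% over all tested genes, and of 26 autophagy genes 10 (1 and 0) fell, with none higher in either group. Autophagy-related protein 22 (PCI_5616), a vacuolar amino acid exporter, went from 15.5 and 21.5 to 5.24 and 3.68 FPKM. DNA replication and mitosis counted 2 (0 and 0) higher and 18 (1 and 2) lower of 80, both below the shares of all tested genes, with the mitotic cyclin-B PCI_4730 at 325 and 292 on plates and 178 and 144 on leaves. Calls that fell away without at least 1 CK2D replicate were those of PCI_6584, PCI_5616 and PCI_4730 (adjusted p up to 0.141).

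Enzymes against reactive oxygen went both ways, with 16 (5 and 5) higher and 10 (3 and 2) lower of 43. Among the catalases, which remove peroxide, different genes were high in the 2 groups: PCI_2755 had 103 and 84.8 FPKM on leaves and 5.14 and 4.73 on plates (log2 3.99 ± 0.14, adjusted p = 0.000292), and PCI_6212 had 13.04 and 0.718 against 71.3 and 66.9. The superoxide dismutase PCI_1659 fell from 338 and 362 to 8.78 and 18.7 FPKM (log2 −4.66 ± 0.35, adjusted p = 0.00163), and the dismutase PCI_2753, near catalase PCI_2755 in gene number, rose from 2.15 and 2.17 to 18.3 and 15.2. The peroxidase stcC (PCI_2009), named after a sterigmatocystin gene, had 228 and 196 FPKM on leaves and 8.45 and 8.94 on plates. Heat shock proteins and chaperones were 23 (4 and 3) higher and 10 (3 and 3) lower of 50. The falls include small heat shock proteins such as PCI_1653 (31.99 and 35.5 on plates, 7.002 and 4.01 on leaves) and hsp9 (PCI_1781, 394 and 452 on plates against 21.2 and 99.5 on leaves), and Hsp90 (PCI_5901, 1094 and 959 on plates against 693 and 727 on leaves). The rises include subunits of the ring-shaped TCP-1 chaperone, which folds actin and tubulin, such as the eta subunit PCI_8408 at 97.5 and 106 against 57.2 and 55.4 FPKM. Beside these values, PCI_6212, PCI_1781, PCI_5901 and PCI_8408 had no call without at least 1 CK2D replicate (adjusted p up to 0.162). Without TL2D replicates 1 and 2 in turn, the log2 change was −5.35 and −2.32 for PCI_6212 and −2.07 and −4.25 for PCI_1781.

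Hypothetical proteins make up 16.5% of the tested genes. Of these 1365, 280 rose and 442 fell, slightly under the 24.8% and slightly over the 29.4% of all tested genes. Rises and falls of at least 4-fold were seen in 57 and 75 of the 1365. Those shares are slightly above the 3.15% and 4.36% of all tested genes. Beside those already named, PCI_2668 had 72.4 and 83.4 FPKM on plates and 0.0923 and 0.0466 on leaves (log2 −6.20 ± 0.14, adjusted p = 0.000106). The abundant PCI_8372 rose from 1328 and 1206 to 3342 and 3492 (log2 1.43 ± 0.12, adjusted p = 0.0021). With 1 CK2D replicate fewer there was no call for PCI_8372 (adjusted p up to 0.0523).

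The leaf replicates lay apart on a set of genes. Of the 565 tested genes at least 2-fold apart between them, 430 were higher in replicate 1 and 135 in replicate 2. Of the 565, 281 were called between leaf and plate, a share somewhat below the 54.2% of all tested genes. Replicate 1 was the closer of the leaf pair to the plate mean in 391 of the 565 and to the day 3 leaf mean in 449. The same counts over all tested genes were not made. Across all tested genes, leaf replicate 1 had Pearson correlations of 0.826 and 0.825 with plate replicates 1 and 2 on the log2(FPKM + 1) scale. For leaf replicate 2 they were 0.803 and 0.800. The 565 genes are part of these correlations, so whether the closeness to plates reached beyond them was not tested. The 10 genes with the leaf replicates furthest apart, among those above 10 FPKM on leaves, were all high in replicate 1 and low in replicate 2. The hypothetical protein PCI_1924 had 69.5 and 0.786 FPKM in leaf replicates 1 and 2, 49.01 and 56.2 on plates and 1148 and 848 at day 3 on leaves (log2 −2.25 ± 1.77, adjusted p = 0.326). Catalase A (PCI_6124) had 26.7 and 1.21 FPKM on leaves at day 2, 80.95 and 96.5 on plates and 247 and 184 at day 3 (adjusted p = 0.0662). The thioredoxin-like protein PCI_7289 followed the same order, with 76.7 and 4.62 FPKM on leaves at day 2, 209.5 and 259 on plates and 830.1 and 551 at day 3. Of the 10, the chloroperoxidase PCI_3553 (27.5 and 0.860 on leaves, 165 and 165 on plates) and the DUF2235 protein PCI_0821 (42.04 and 1.87 against 218 and 219) were called lower on leaves, and the other 8 were not. The order was reversed in hsp9 (PCI_1781), with 21.2 and 99.5 FPKM in leaf replicates 1 and 2. What set the replicates apart was not tested. In this group PCI_3553, PCI_0821 and PCI_1781 had no call without at least 1 CK2D replicate (adjusted p up to 0.177). The log2 change without TL2D replicate 1 and without replicate 2 was −6.48 and −2.54 for PCI_3553, −6.26 and −2.35 for PCI_0821 and −2.07 and −4.25 for PCI_1781.

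**Figure D5:**
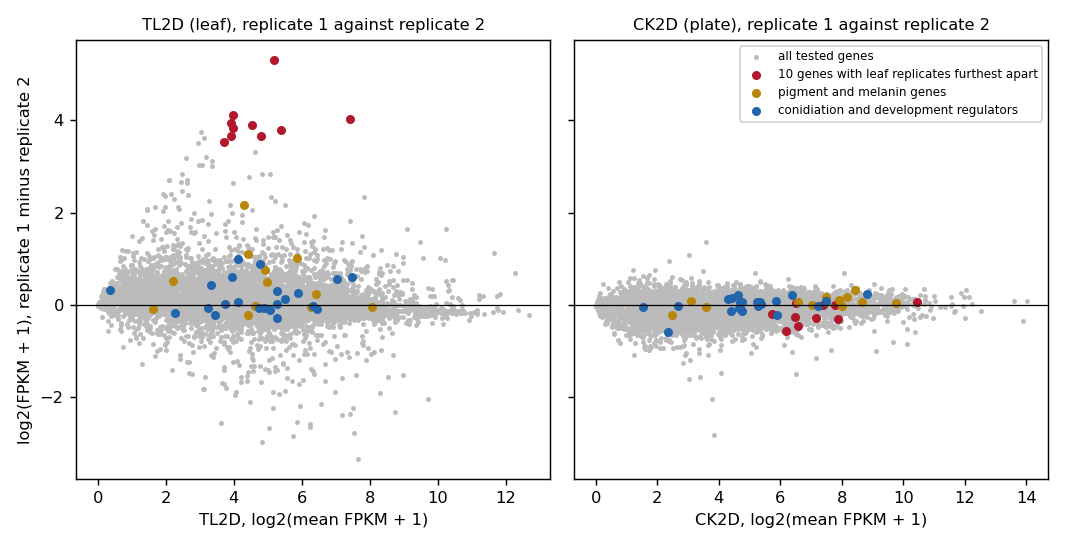
Difference between replicate 1 and replicate 2 on the log2(FPKM + 1) scale against the mean level of the group, for the leaf libraries (left) and the plate libraries (right), each grey point a tested gene. The 10 genes with the leaf replicates furthest apart (red) lie above 3 on the left and near 0 on the right, and pigment genes (ochre) and development regulators (blue) lie nearer to 0 than these on the left.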

How the data were processed

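RNA was sequenced from 2 libraries each of CK2D and TL2D, with 2 of TL3D used for levels and in the alternative with all 6 libraries. The authors deposited FPKM per gene, made with Cufflinks per the submitters' processing notes; its version is not given in the sources used here, nor are aligner, annotation or genome build. Per the file headers the authors also deposited a fold change (a ratio of mean FPKM), its log2 and an FDR (an adjusted p-value) whose test is not stated. The deposited log2 values were recomputed from the FPKM within 0.001 for 100.0% of 9385 genes. The depth per library is unknown, and no count test was run because the values are FPKM.

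Genes that reached 1 FPKM in 2 or more of the 4 libraries were tested on log2(FPKM + 1) with limma 3.58.1 (empirical Bayes with a trend, no covariate, 2 residual degrees of freedom) in R 4.3.3, and Benjamini-Hochberg adjusted p under 0.05 was a call. The script was tested on simulated data. An exact permutation test of 2 against 2 libraries cannot go below p = 0.333, so none was used. Tables and figures used Python 3.11.15, pandas 2.3.3 and matplotlib 3.10.9. The 54 gene groups are searches of product names, trimmed after the product names were read, and are given as counts and medians with no test. The members and lists were chosen with earlier results of these data known.

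The rule for named genes took the widest called rise and fall of each group, the 10 most abundant genes of each condition, the 10 widest rises and falls above the median level, the 10 highest genes of each condition that were under 0.5 FPKM in both libraries of the other, runs of at least 4 consecutive gene numbers changed at least 4-fold the same way, and the 10 genes with the leaf replicates furthest apart. The widest rises and falls above the median level were ranked among called genes with no overlap between the groups. A further 138 genes were named after their values were seen. The deviations of same-numbered libraries from their group means had a correlation of −0.0796 across genes over 1 pair, so the replicate numbers were not taken to pair libraries. Alternatives tried were a pseudocount of 0.1, each library left out, no filter, a block for the replicate number, 2 other scalings (upper quartile and median log ratio), no trend, all 6 libraries in 1 fit, the authors' FDR, and an adjusted p under 0.01. None of the gene numbers matched the 11657 genes of the reference table, so names are the product names of the deposited tables and no sequence is shown.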

Additional observations from a re-analysis of the deposited data

How the results depend on the processing

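The 4493 calls (2054 higher, 2439 lower; 832 and 1012 at least 2-fold) depended most on the plate replicates. With each library left out in turn the calls ranged from 1131 to 5229, those higher on leaves from 593 to 2230, those lower from 510 to 2999, those at least 2-fold higher from 547 to 912 and those at least 2-fold lower from 490 to 1264; both low values of each range came without a CK2D replicate, where the spread rests on the leaf pair. An adjusted p under 0.01 left 2183 calls, 1115 higher and 1068 lower. The other alternatives moved no count over all genes by more than 1.5 times: the calls numbered 4429 with a pseudocount of 0.1, 4450 with no filter, 4505 with upper-quartile scaling, 4496 with median log ratio scaling, 4425 with no trend, 5077 with all 6 libraries and 4845 with the authors' FDR. Median log ratio scaling moved the split to 2279 higher and 2217 lower, and the median log2 change from −0.099 to −0.021.

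With the replicate number as a block, which here shares only a number, 3568 genes were called (1672 higher, 1896 lower), and PCI_1860, PCI_3476, PCI_5901 and PCI_6584 lost their calls. Among other named genes, PCI_3553 and PCI_0821 were not called with a pseudocount of 0.1, with no filter or by the authors' FDR, and PCI_8195 and PCI_3474 gained a call by that FDR. Neither PCI_1924 nor PCI_0056 was called with all 4 libraries, and without TL2D replicates 1 and 2 in turn their log2 changes were −4.90 and 0.40, and −0.26 and 0.034. The cause was not tested. Of 108 counts of gene groups, 92 and 90 moved by over 1.5 times without CK2D replicates 1 and 2, 69 at an adjusted p under 0.01, 17 under the block, 9 with the authors' FDR, 8 and 5 without TL2D replicates 1 and 2, and at most 5 under any other alternative. Depth is unknown, so what low genes could show cannot be stated.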

Other observations

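Of 14 carbon and nitrogen regulators 1 (0 and 1) rose and 7 (1 and 0) fell, with a median log2 change of −0.39, and the rises numbered 2 without TL2D replicate 1 and 3 without TL2D replicate 2. Other groups had smaller shares of changed genes or went both ways. Pre-mRNA splicing genes counted 9 (0 and 0) higher and 4 (0 and 0) lower of 67, fewer than the shares of all tested genes in both directions, and 7 were lower when TL2D replicate 1 was left out. Genes for tubulin, actin, septins and cell polarity counted 18 (2 and 2) higher and 21 (2 and 2) lower of 76. Fatty acid beta-oxidation had 4 (2 and 2) rises and 7 (2 and 2) falls among 29. Of 7 peptide transporters 2 (1 and 1) rose and 1 (0 and 0) fell, and without TL2D replicate 1 that was 3 lower, without TL2D replicate 2 4 higher. Over the 27 tested genes with quinate or shikimate names 7 (3 and 3) rose and 8 (2 and 2) fell. Numbers in parentheses are again the counts without CK2D replicate 1 and without CK2D replicate 2.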
